A study of Mus musculus with 7 samples.

Results

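Cajal-Retzius cells were followed in these arrays through 9 genes by which they are commonly recognised: Reln, Trp73, Lhx1, Lhx5, Ebf2, Ebf3, Calb2, Ndnf and Cacna2d2. The genes were taken by symbol. Each had a single probe set carrying its symbol alone, and all 9 were among the 16144 genes tested, of 19936 genes with a symbol. The study hybridised total RNA from whole neocortex of C57BL/6 mice to 1 array per sample, 4 from conditional knockouts (CKO) and 3 from wild types (WT). The CKO genotype is given as COUP-TFI with Nex-Cre, and the question is which transcripts differ when COUP-TFI is targeted in that way. COUP-TFI is the orphan nuclear receptor encoded by Nr2f1. Nex-Cre expresses the recombinase from the Neurod6 locus in postmitotic glutamatergic neurons, so other cells of the tissue are not its main target. Age, sex, the exact alleles, and whether WT samples carry Cre or a floxed allele, the sources used here do not give. Each array carries its group and label number: CKO 1, 4, 34 and 43, and WT 6, 27 and 38. All had an RNA integrity number of 10. Nothing says that they came from separate animals, so p-values measure the spread between samples, which may be technical.

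Cajal-Retzius cells are early-born neurons of the marginal zone, directly beneath the meninges. They arise mainly at the borders of the pallium, in the cortical hem, the septum and the ventral pallium, spread tangentially over the cortical surface, and largely disappear after birth. They are best known for secreting reelin, which binds receptors on migrating neurons and orders the cortical layers. None of the 9 genes is exclusive to these cells: Reln, Calb2 and Ndnf are also made by interneurons, and the LIM and EBF factors by neurons of other brain regions. In bulk tissue, fewer cells and less RNA per cell cannot be told apart.

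Values are log2 signals made by RMA, which scales all arrays to 1 distribution. Levels of different genes are not compared, because probe sets differ in brightness. Differences are CKO minus WT from limma fitted over all 16144 genes, with its standard error (SE), 95% interval and Benjamini-Hochberg adjusted p. Of 8 genes of neocortical neurons, the mean signals lay between the 80.8th percentile of all probe sets (Emx1) and the 98.7th (Neurod2). Because probe sets differ in brightness and no other tissue was ranked, this could not test the tissue label or exclude other tissue. Nr2f1 itself was lower on every CKO array (10.60 to 10.79) than on any WT array (10.88 to 11.16), by -0.36 (SE 0.074), with a limma adjusted p of 0.435; whether its probe set lies inside the deleted sequence was not tested. Array identifiers in the labels share leading digits within 3 sets, taken as array lots: lot 1 held CKO 1 and CKO 4, lot 2 held CKO 34, CKO 43, WT 27 and WT 38, and lot 3 held WT 6. The labels name no lot or batch, so the lots are inferred, and WT 6 shares later digits of its identifier with lot 2. Lot 2 alone holds both genotypes.

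No difference between CKO and WT passed the test for any of the 9 genes over the 7 arrays. None had an adjusted p under 0.05 with limma, nor an unadjusted one (0 of 9), and for each of the 9 the groups overlapped. Over all genes tested, 0.0248% passed the adjusted threshold, 6.79% had an unadjusted p under 0.05 (2.61% lower and 4.17% higher in CKO) and 8.38% had groups without overlap. Differences ran from -0.13 for Ndnf to 0.07 for Calb2, 5 negative (41.1% of all genes were negative) and 4 positive, with a median of -0.01 against 0.01 over all genes. An absolute difference of at most 0.15 was found for 92.6% of all genes and for all 9 of these. The limma SE had a median of 0.09 over the 9 genes and 0.05 over all genes.

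**Figure D1:**
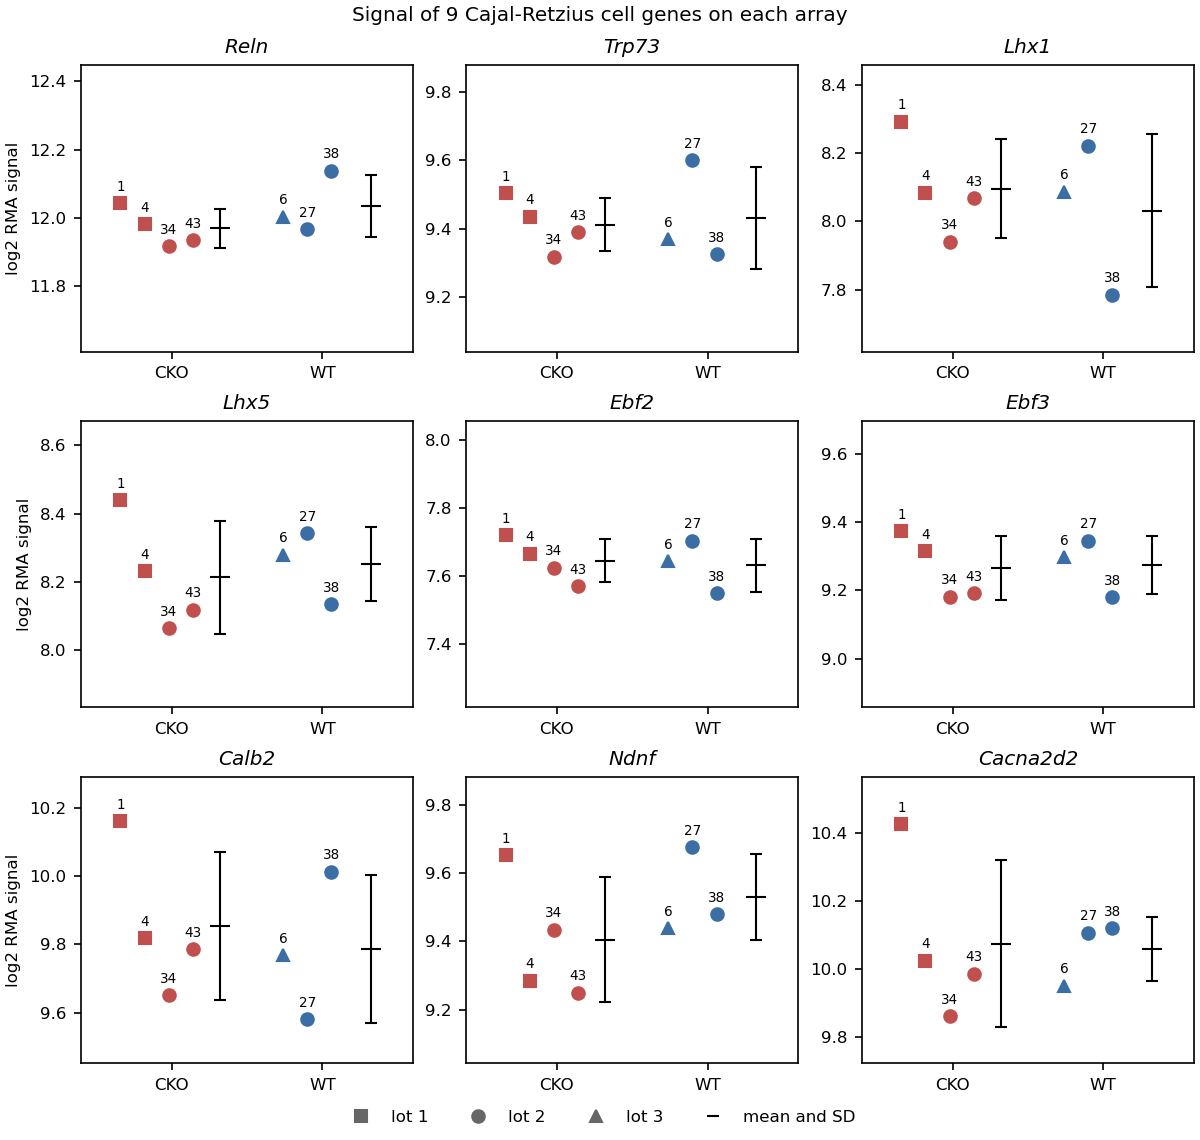
Log2 RMA signal (vertical axis, the same span in each panel) of the 9 genes on the 4 CKO arrays (red) and 3 WT arrays (blue), with the array number above each point, the lot as its shape, and the group mean with its SD beside the points. The groups overlap in every panel, and CKO 1 is the highest array for 6 of the 9 genes.

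The secreted products come first. Reln encodes reelin itself. Its signal (probe set 10528385) was 12.04 on CKO 1, 11.98 on CKO 4, 11.92 on CKO 34 and 11.93 on CKO 43, and 12.00 on WT 6, 11.97 on WT 27 and 12.14 on WT 38. WT 38 was the highest array and the lot 2 CKO arrays were the lowest, and CKO 1 and CKO 4 lay among the WT arrays. CKO averaged 11.97 ± 0.056 (SD, n = 4), and WT averaged 12.04 ± 0.091 (SD, n = 3). The difference of -0.07 (SE 0.054, limma adjusted p 0.789) corresponds to 0.955 of the WT signal. Its 95% interval ran from 0.877 to 1.04 of WT, among the narrowest of the set.

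Ndnf encodes a secreted neurotrophic factor that marks Cajal-Retzius cells and, later, layer 1 interneurons. Its signal (probe set 10538802) was 9.65, 9.28, 9.43 and 9.25 on CKO 1, CKO 4, CKO 34 and CKO 43, and 9.44, 9.68 and 9.48 on WT 6, WT 27 and WT 38. CKO 1 stood with the WT arrays, and the other 3 CKO arrays lay below all WT arrays, CKO 34 only just. The means were 9.41 ± 0.184 (SD, n = 4) and 9.53 ± 0.127 (SD, n = 3). The difference of -0.13 (SE 0.102, limma adjusted p 0.789) was the most negative of the 9 and corresponds to 0.916 of WT, with an interval from 0.779 to 1.08.

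Of the 5 transcription factors, Trp73 encodes p73, a relative of p53 that these cells need to survive. The gene has more than 1 start, and p73 is made both full length and, from an intragenic start, without its N-terminal activation domain. The array has 1 probe set for the gene, so the forms were not measured apart. The 250 bases before the upstream and the intragenic start, from RefSeq (GRCm38.p6, minus strand, chr4:154139876-154140125 and chr4:154097174-154097423), are shown 5′ to 3′ with CG dinucleotides in capitals, because the starts differ in their number.
Trp73 upstream start: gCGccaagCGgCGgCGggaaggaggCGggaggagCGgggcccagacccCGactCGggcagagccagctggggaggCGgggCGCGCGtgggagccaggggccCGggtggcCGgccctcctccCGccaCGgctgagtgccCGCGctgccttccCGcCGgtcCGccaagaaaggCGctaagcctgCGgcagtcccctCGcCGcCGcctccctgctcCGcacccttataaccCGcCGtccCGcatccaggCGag
Trp73 intragenic start: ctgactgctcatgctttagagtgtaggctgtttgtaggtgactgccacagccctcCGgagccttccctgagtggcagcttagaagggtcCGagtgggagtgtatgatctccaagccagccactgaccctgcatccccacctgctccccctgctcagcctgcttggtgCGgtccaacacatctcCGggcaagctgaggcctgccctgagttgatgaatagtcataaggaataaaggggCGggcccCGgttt
The upstream window holds 31 CG dinucleotides and the intragenic one 6, against a median of 6 over 32851 RefSeq windows of that length. The nuclear receptor half-site AGGTCA, searched on both strands (TGACCT on the other), was in 0 of 6 windows of the 5 members that have one (Reln, Trp73, Lhx1, Ebf3 and Cacna2d2) and in 14.0% of all windows. These letters are not in those windows, and nothing about the factor follows from that.

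The Trp73 signal (probe set 10518989) was 9.50, 9.44, 9.32 and 9.39 on CKO 1, CKO 4, CKO 34 and CKO 43, and 9.37, 9.60 and 9.32 on WT 6, WT 27 and WT 38. WT 27 was the highest array, CKO 34 was the lowest with WT 38 just above it, and the groups overlapped. The means were 9.41 ± 0.079 (SD, n = 4) and 9.43 ± 0.149 (SD, n = 3). The difference was -0.02 (SE 0.074, limma adjusted p 0.962), or 0.986 of WT, with an interval from 0.877 to 1.11.

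Lhx1 and Lhx5 are related LIM-homeodomain factors of Cajal-Retzius cells. Lhx1 (probe set 10389283) was at 8.29, 8.08, 7.94 and 8.07 on CKO 1, CKO 4, CKO 34 and CKO 43, and at 8.09, 8.22 and 7.78 on WT 6, WT 27 and WT 38. Lhx5 (probe set 10525069) was at 8.44, 8.23, 8.06 and 8.12 on the same CKO arrays and at 8.28, 8.34 and 8.13 on the WT arrays. For both genes CKO 1 and WT 27 were the highest arrays of their groups, and CKO 34 was the lowest CKO array and WT 38 the lowest WT array. For Lhx1, CKO averaged 8.10 ± 0.146 (SD, n = 4) against 8.03 ± 0.224 (SD, n = 3), which gives 0.06 (SE 0.112, limma adjusted p 0.897) and an interval from 0.875 to 1.25 of WT. For Lhx5, CKO averaged 8.21 ± 0.166 (SD, n = 4) against 8.25 ± 0.107 (SD, n = 3), which gives -0.04 (SE 0.092, limma adjusted p 0.931) and an interval from 0.841 to 1.13 of WT. The LIM factors thus overlapped between genotypes, with wide spreads in both groups. Lhx1 and Ebf2 lay below the median signal of all probe sets, at the 47.3rd and 39.4th percentile, and Lhx5 at the median. All 3 passed the filter on dim probe sets, set at the 25th percentile.

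Ebf2 and Ebf3 encode helix-loop-helix factors of the early B-cell factor family, made by migrating Cajal-Retzius neurons. Ebf2 (probe set 10416126) was at 7.72, 7.67, 7.63 and 7.57 on CKO 1, CKO 4, CKO 34 and CKO 43, and at 7.64, 7.70 and 7.55 on WT 6, WT 27 and WT 38. Ebf3 (probe set 10568735) was at 9.37, 9.32, 9.18 and 9.19 on the CKO arrays and at 9.30, 9.35 and 9.18 on the WT arrays. The groups were interleaved for both. Ebf2 averaged 7.65 ± 0.063 (SD, n = 4) in CKO against 7.63 ± 0.078 (SD, n = 3), and Ebf3 averaged 9.27 ± 0.095 (SD, n = 4) against 9.27 ± 0.086 (SD, n = 3). The difference was 0.01 (SE 0.053, limma adjusted p 0.967) for Ebf2 and -0.01 (SE 0.063, limma adjusted p 0.981) for Ebf3. The interval for Ebf2 ran from 0.928 to 1.097 of the WT signal and that for Ebf3 from 0.899 to 1.099.

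The remaining pair handles calcium. Calb2 encodes calretinin, a calcium-binding protein of Cajal-Retzius cells and of a class of interneurons. Its signal (probe set 10581654) was 10.16, 9.82, 9.65 and 9.79 on CKO 1, CKO 4, CKO 34 and CKO 43, and 9.77, 9.58 and 10.01 on WT 6, WT 27 and WT 38. It varied most of the 9 genes, by 0.58 from WT 27 at the bottom to CKO 1 at the top. CKO averaged 9.85 ± 0.218 (SD, n = 4) against 9.79 ± 0.217 (SD, n = 3) in WT. The difference of 0.07 (SE 0.133, limma adjusted p 0.911) had the widest interval, from 0.848 to 1.29 of WT.

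Cacna2d2 encodes an auxiliary subunit of voltage-gated calcium channels. Its signal (probe set 10588592) was 10.43, 10.02, 9.86 and 9.99 on CKO 1, CKO 4, CKO 34 and CKO 43, and 9.95, 10.11 and 10.12 on WT 6, WT 27 and WT 38. CKO 1 stood 0.42 above the mean of the other 6 arrays, the largest such gap among the 9 genes, and the other 3 CKO arrays spanned the low end with WT 6. CKO averaged 10.07 ± 0.244 (SD, n = 4) against 10.06 ± 0.094 (SD, n = 3) in WT. Limma gave a difference of 0.01 (SE 0.122, adjusted p 0.983), with an interval from 0.832 to 1.23 of WT.

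The order of the arrays was alike for several of the genes. CKO 1 was the highest of the 7 arrays for 6 genes (Lhx1, Lhx5, Ebf2, Ebf3, Calb2 and Cacna2d2), where it was highest for 17.7% of all genes. WT 27 was highest for Trp73 and Ndnf (18.9% of all genes), and WT 38 for Reln (15.7%). The lowest array was CKO 34 for 4 genes (11.6% of all genes), WT 38 for 3 (30.8%), CKO 43 for Ndnf (8.3%) and WT 27 for Calb2 (12.4%). Averaged over the 9 genes, each taken relative to its own mean, CKO 1 was at 0.18, WT 27 at 0.06, CKO 4 and WT 6 at -0.02, WT 38 at -0.03, CKO 43 at -0.08 and CKO 34 at -0.11. The CKO arrays thus held both the top and the bottom of the range.

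**Figure D2:**
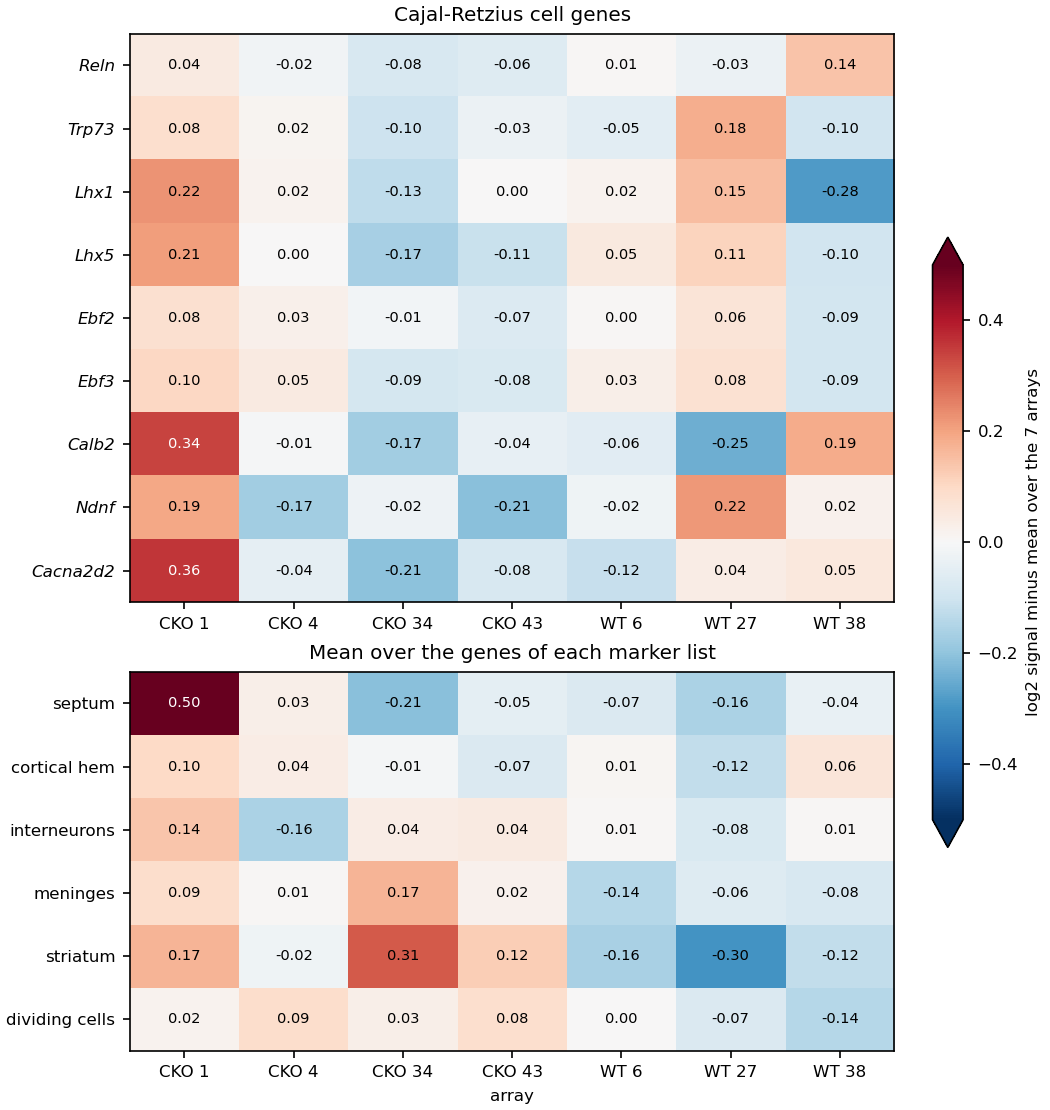
Log2 signal relative to the mean over the 7 arrays (colour and printed number) for the 9 genes (upper panel, one row a gene) and averaged over the tested genes of 6 marker lists (lower panel, one row a list), by array (columns). CKO 1 is above the mean for all 9 genes and is at 0.50 for the septum list, while CKO 34 is below the mean for all 9.

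Within CKO, 8 of the 9 genes ran from CKO 1 down to CKO 4 and then to both lot 2 arrays, an order found for 22.6% of all genes; Ndnf was the exception. Both lot 1 CKO arrays lay above both lot 2 CKO arrays for those 8 genes and for 47% of all genes. The mean of lot 1 exceeded that of lot 2 in CKO by a median of 0.16 over the 9 genes and 0.03 over all genes. Within WT, the 5 transcription factors Trp73, Lhx1, Lhx5, Ebf2 and Ebf3 ran from WT 27 to WT 6 to WT 38, an order found for 23.9% of all genes, and these 5 showed both orders where 5.86% of genes did. Reln, Calb2, Ndnf and Cacna2d2 did not follow the WT order. These orders were looked for after the values were seen and carry no test.

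The closest pairs of profiles were among the transcription factors. The root mean square difference between the profiles of 2 genes over the 7 arrays, after each was centred on its mean, was smallest for Ebf2 with Ebf3, at 0.03, of 36 pairs. Trp73 with Ebf3 (0.06) and Lhx5 with Ebf3 (0.06) came next, and Lhx1 with Lhx5 was at 0.09. The widest pair was Lhx1 with Calb2, at 0.24. Among all genes tested, those closest to Reln were Art1 (0.019), Sla2 (0.022) and Ttc39a (0.024), where the median gene stood 0.10 from it. Those closest to Trp73 were Mmp25 (0.024), Unc5b (0.025) and Wwc2 (0.027), where the median gene stood at 0.11. These nearest genes were picked from 16144 over only 7 arrays, and the distances are a description. The measure is not scaled to the spread of each gene, so genes that vary little lie close together. Over the 7 arrays Ebf2 and Ebf3 ranged by 0.17 and 0.19, and Lhx1 and Calb2 by 0.51 and 0.58. A gene that did not vary at all would stand 0.069 from Reln and 0.095 from Trp73.

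Within lot 2, where 2 CKO and 2 WT arrays can be compared without a change of inferred lot, 8 of the 9 genes were lower in CKO, where 53.6% of all genes were. The median difference was -0.11 over the 9 genes and -0.01 over all genes. A second list of genes linked to Cajal-Retzius cells, described below, went the other way within lot 2. Of its 9 genes tested, 8 were higher in CKO and 1 lower (median 0.06). None passed the adjusted threshold with limma, where 0% of all genes did. At an unadjusted p under 0.05 there was 1 of the 9, Cacna2d2, lower in CKO, where 3.01% of all genes were, 1.93% lower. The groups did not overlap, with CKO lower, for 4 genes (Reln, Lhx5, Ndnf and Cacna2d2) and for 17.3% of all genes; in either direction they did not for 30.4%. The 2 comparisons share these 4 arrays, so they are not separate evidence.

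The lot 2 difference was -0.24 (SE 0.102) for Ndnf, -0.19 (SE 0.061) for Cacna2d2, -0.15 (SE 0.085) for Lhx5, -0.13 (SE 0.073) for Reln and -0.11 (SE 0.107) for Trp73. It was -0.08 for Calb2 and Ebf3, -0.03 for Ebf2 and 0.0009 for Lhx1. The limma adjusted p was 0.999 for each of the 8 negative genes. For Cacna2d2, the lot 2 interval on the log2 scale ran from -0.35 to -0.03, while that over all arrays ran from -0.26 to 0.29. With array weights, or without CKO 43, 0 of the 9 had an unadjusted p under 0.05 within lot 2, and without CKO 34 the Cacna2d2 difference was -0.13 (SE 0.114). The 2 WT arrays of lot 2 lay far apart: of all 7 arrays, WT 27 had the least Calb2 and the most Trp73 and Ndnf, and WT 38 had the least Lhx1, Ebf2 and Ebf3 and the most Reln. Without WT 27 the lot 2 median moved to -0.04 and 5 of the 9 were negative, and without WT 38 it moved to -0.18 with 8 negative.

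**Figure D3:**
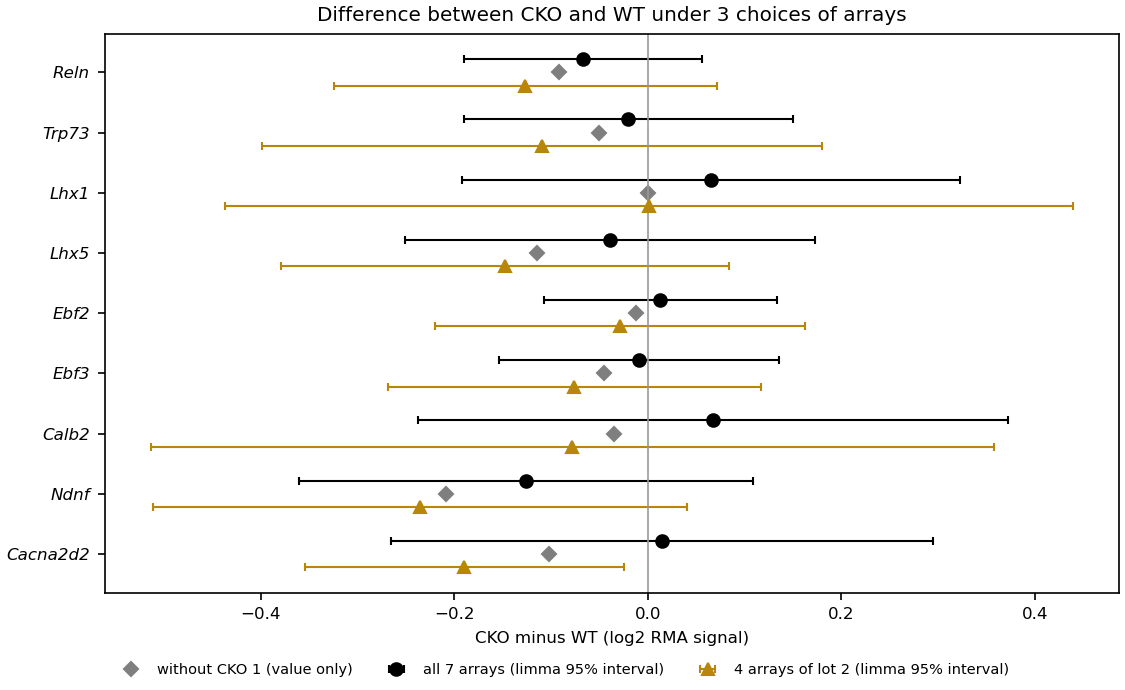
CKO minus WT in log2 RMA signal (horizontal axis) for the 9 genes (rows) over all 7 arrays (black circles), without CKO 1 (grey diamonds) and within the 4 arrays of lot 2 (gold triangles), with limma 95% intervals as bars for the first and last. All intervals over the 7 arrays cross 0, and within lot 2 only that of Cacna2d2 (-0.35 to -0.03) does not, a call lost with array weights. CKO 1 is the highest CKO array for each of the 9 genes, so every diamond must lie left of its circle.

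CKO 1 was the highest CKO array for each of the 9 genes, so leaving it out could only lower each difference. It is singled out on these same values, so what follows is a description and no test. Leaving out CKO 1 alone turned the sign of 4 genes and made all 9 differences negative, where 45.4% of all genes were negative in that setting. Calb2 went from 0.07 to -0.04, Cacna2d2 from 0.01 to -0.10, Lhx1 from 0.06 to -0.00027 and Ebf2 from 0.01 to -0.01. Ndnf went from -0.13 to -0.21 (SE 0.079) and was the 1 gene of the 9 whose groups then did not overlap, with CKO lower, as for 4.94% of all genes. It was also the 1 gene with an unadjusted p under 0.05 (0.032), where 4.94% of all genes were, and its limma adjusted p was 0.956. The median of the 9 genes was -0.05 without CKO 1, against 0.01 over all genes. The signs turned with other arrays too: 2 of the 9 differences were negative without CKO 34, 3 without WT 27, 4 without CKO 43, 5 without CKO 4 or WT 6, and 7 without WT 38. None of the 9 passed the adjusted threshold in any of these settings.

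Genes of the septum, a source of Cajal-Retzius cells, were also highest on CKO 1. Of 6 septal genes tested, CKO 1 was the highest array for 5, where it was for 17.7% of all genes. Their mean relative to the 7 arrays was 0.50 on CKO 1. It was between -0.21 and 0.03 for the rest of CKO, and between -0.16 and -0.04 for WT. Zic1, a zinc finger factor of the septum and the dorsal midline, was at 11.46 on CKO 1 and between 10.22 and 10.61 on the other 6. Zic4 was at 8.94 against 7.85 to 8.26, Zic2 at 11.23 against 10.57 to 10.77 and Zic5 at 10.73 against 9.82 to 10.22. Lhx8, a LIM factor of the ventral forebrain and a relative of Lhx1, was at 8.01 against 7.27 to 7.35. Zic1, Zic4 and Lhx8 were chosen after their values were seen. None of the 6 septal genes passed limma's adjusted threshold or had an unadjusted p under 0.05, and all 6 were positive (median 0.17). Of all genes, 6.79% had an unadjusted p under 0.05 and 41.1% were negative. Within lot 2 the median of the septal genes was -0.01. Genes of the hippocampus were highest on CKO 1 as well: CKO 1 was the highest array for 5 of the 7 tested, and the list mean was 0.09 on CKO 1 and between -0.05 and 0.03 on the other 6 arrays. The part of septal or hippocampal tissue in the values of the 9 genes on CKO 1 was not tested.

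Other sources and neighbours of Cajal-Retzius cells were read in the same way, and no member of any list in this paragraph passed the adjusted threshold with limma. Of 13 cortical hem genes, 6 were positive and 7 negative, with 2 higher at an unadjusted p under 0.05 (4.17% of all genes): Bmp4 (0.20, SE 0.051) and Bmp7 (0.29, SE 0.112), secreted BMP ligands. The hem list was at 0.10 on CKO 1, between -0.07 and 0.04 for the rest of CKO, and between -0.12 and 0.06 for WT. Of 5 antihem genes tested (Fgf7 fell below the filter), 4 were positive (median 0.04). Of 18 interneuron genes, which share Reln, Calb2 and Ndnf expression, 11 were positive and 7 negative (median 0.06), with 2 higher and 3 lower at an unadjusted p under 0.05, where 4.17% and 2.61% of all genes were. That list was at 0.14 on CKO 1 and -0.16 on CKO 4, and at -0.08 to 0.01 on WT arrays. CKO 1 was the highest array for 10 of the 18 and for 17.7% of all genes. The part of interneurons in the values of Reln, Calb2 and Ndnf was not tested.

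Genes of layer 1 and neurogliaform interneurons had a list mean lower on every CKO array than on any WT array. The mean of the 7 tested was -0.13 to -0.01 on CKO arrays and 0.01 to 0.15 on WT arrays. Of these 7 genes, 3 were positive and 4 negative, with a median of -0.01. At an unadjusted limma p under 0.05, 2 were lower, where 2.61% of all genes were. They were Npy (-0.51, SE 0.064, limma adjusted p 0.10) and Htr3a (-0.60, SE 0.166, limma adjusted p 0.711), which are also in the interneuron list above. The lower list mean in CKO came from these 2 genes and was not shared by the rest of the list. Single genes with groups apart and CKO lower made up 2.99% of all genes. Npy encodes neuropeptide Y and Htr3a a serotonin receptor channel. Meningeal genes, from the tissue next to the marginal zone, had a list mean higher on every CKO array than on any WT array. It was 0.01 to 0.17 on CKO arrays and -0.14 to -0.06 on WT arrays. Of 9 tested, 8 were positive (median 0.17), and 5 were higher at an unadjusted p under 0.05 (4.17% of all genes). Single genes with groups apart and CKO higher made up 5.39% of all genes. On CKO 34, where the meningeal list was highest (0.17), 4 of the 9 Cajal-Retzius genes had their lowest value, as did 11.6% of all genes. On CKO 1, where that list was next highest (0.09), 6 of the 9 had their highest value, as did 17.7% of all genes. Of 11 striatal genes all were positive (median 0.24), and 7 were higher at an unadjusted p under 0.05, where 4.17% of all genes were and 41.1% had a negative difference. Their list mean was -0.02 to 0.31 on CKO and -0.30 to -0.12 on WT arrays. The part of meningeal or striatal tissue in these values was not tested.

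None of the receptors and transducers of reelin passed the adjusted threshold with limma. Of 26 genes of the pathway, all tested, 11 were positive and 15 negative, with a median of -0.01. At an unadjusted limma p under 0.05, 1 was higher and 1 lower, where 4.17% and 2.61% of all genes were. The receptor genes Vldlr and Lrp8 differed by -0.07 (SE 0.061) and 0.02 (SE 0.043). Dab1, the adaptor phosphorylated when reelin binds, differed by -0.01 (SE 0.045). Its signal lay between 12.57 and 12.60 on the CKO arrays, inside the WT range of 12.52 to 12.67. Pik3r1, a regulatory subunit of PI3-kinase, was at 11.46, 11.21, 11.46 and 11.38 on CKO 1, CKO 4, CKO 34 and CKO 43 and at 11.58, 11.65 and 11.75 on the WT arrays. Its groups did not overlap, and the difference of -0.28 (SE 0.072) had an adjusted p of 0.683 with limma. Notch1 differed by 0.12 (SE 0.046, limma adjusted p 0.723); its groups were apart only barely, with CKO 34 and WT 38 both at 11.83. Among all genes, groups without overlap lay lower in CKO for 2.99% and higher for 5.39%.

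Other genes linked to Cajal-Retzius cells held no member past the adjusted threshold with limma. Of 9 tested, 8 were positive and 1 negative (median 0.06), where 41.1% of all genes were negative. Within lot 2 also, 8 were positive and 1 negative (median 0.06), where 53.6% of all genes were negative. At an unadjusted limma p under 0.05, 2 were higher, where 4.17% of all genes were. They were Emx2, a homeobox factor of the caudomedial pallium (0.29, SE 0.093, limma adjusted p 0.711), and Tbr1, a T-box factor shared with deep-layer neurons (0.14, SE 0.057, limma adjusted p 0.726). The chemokine receptor gene Cxcr4, which keeps Cajal-Retzius cells under the meninges, differed by 0.06 (SE 0.049), and Nhlh2, a helix-loop-helix factor, by 0.11 (SE 0.104). Nr2f2, the paralog of Nr2f1, differed by -0.07 (SE 0.144). As for Lhx5, CKO 1 was the highest array, at 10.80, CKO 34 the lowest, at 10.24, and WT 27 the highest of WT, at 10.76.

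No relative of the 9 genes passed the adjusted threshold with limma. Of 11 paralogs tested, 5 were positive and 6 negative (median -0.01). At an unadjusted limma p under 0.05 there was 1, higher in CKO, where 4.17% of all genes were. That gene was Ebf1, a striatal factor, at 9.77, 9.53, 10.47 and 9.90 on CKO 1, CKO 4, CKO 34 and CKO 43 and at 9.18, 8.87 and 9.34 on WT 6, WT 27 and WT 38. It was higher in CKO without overlap, as were 5.39% of all genes. The difference was 0.79 (SE 0.207, limma adjusted p 0.694), while Ebf2 and Ebf3 differed by 0.01 and -0.01 on the same arrays. CKO 34, the highest array for Ebf1, was at 9.18 for Ebf3, level with the lowest, WT 38. Calb1, the calbindin relative of Calb2, differed by -0.31 (SE 0.182, limma adjusted p 0.742). The calcium channel subunits Cacna2d1, Cacna2d3 and Cacna2d4 differed by -0.06, -0.07 and -0.03, and the LIM factors Lhx2, Lhx6 and Lhx9 by 0.04, -0.02 and 0.12. Trp63 differed by -0.01.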

How the data were processed

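Total RNA of 7 neocortex samples was labelled with biotin and hybridised to 1-colour Affymetrix arrays. The deposited values are log2 signals that the authors obtained by RMA. The software was Expression Console, per the submitters' processing notes, its version and the genome build not given in the sources used here. Equal ranks differed by at most 0.026 between arrays. Of 35468 probe sets, 21786 had 1 symbol in the platform annotation, 1621 several and 12061 none; 21695 were matched by Entrez identifier to RefSeq (GRCm38.p6), and 0 symbols changed. The brightest probe set stood for each gene, and genes with a mean below the 25th percentile (6.84) were left out. CKO was compared with WT by limma 3.58.1 in R 4.3.3, with no covariate and Benjamini-Hochberg adjustment at 0.05. The fit had 5 residual and 3.28 prior degrees of freedom, and 2 and 2.27 within lot 2. On simulated data for all arrays it recovered 47.8% of 67 genes changed by 0.3 (log2), 91.0% of 67 changed by 0.6 and 97.0% of 66 changed by 1. Of 170 calls there, 13 were unchanged genes. The deposited data gave only 4 calls over all arrays, so passing took a smaller unadjusted limma p than in the simulation. The median SE of the 9 genes was also larger than that of all genes (0.09 against 0.05). The simulated rates therefore do not give the chance of finding a change in the 9 genes. The 9 genes and the lists were chosen with earlier results of these data known. Besides the 9 genes, the rule named members of each list past the threshold (failing any, its 2 smallest p-values), some genes by role, and the 3 profiles nearest Reln and Trp73. Further genes were picked with values in view. The lists of hippocampal (median 0.02), thalamic (0.07), mitral cell (0.03) and dividing cell genes (0.13) had no member past the threshold. All 7 dividing cell genes tested were positive, also within lot 2 (median 0.16). Of these 7, 4 were higher at an unadjusted limma p under 0.05 over all arrays, where 4.17% of all genes were. Their list mean was 0.02 to 0.09 on CKO arrays and -0.14 to 0.0003 on WT arrays, and the cause was not tested. Alternatives changed the normalization, filter, probe set rule, variance model, array weights, lot and each array in turn. The number of arrays limits the precision. Figures were drawn with matplotlib 3.10.9.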

Additional observations from a re-analysis of the deposited data

Results flagged for a closer look

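Of 76 values per array examined in the 4 CKO arrays, 2 had 1 array far from the other 3, where chance marks about 1 in 20. For Notch1, CKO 34 lay below the others, with a gap of 0.921 of the range. For Lhx8, CKO 1 lay above the others, with a gap of 0.8816 of the range. Lhx8 was chosen after its values were seen, so the rate of 1 in 20 does not apply to it. Some of the 76 values are means of lists that hold others of them, so they are not independent. None of the 9 Cajal-Retzius genes was marked in this way.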

How the results depend on the processing

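No paired analysis was possible because the groups share no replicate number. With limma, 0 of the 9 genes passed under any of the 17 alternatives over all arrays (lowest adjusted p 0.519) or the 12 within lot 2 (lowest 0.156), leaving out each array included. Reln and Ndnf stayed negative in all of them, but their size depended on single arrays: with 1 array left out, Reln ran from -0.10 (without WT 27) to -0.016 (without WT 38) and Ndnf from -0.21 (without CKO 1) to -0.054 (without WT 27) over all arrays. Within lot 2, Reln ran from -0.21 to -0.040, Ndnf from -0.33 to -0.14, Lhx5 from -0.25 to -0.043 and Cacna2d2 from -0.25 to -0.13. The 1 unadjusted call within lot 2, Cacna2d2, was lost with array weights (SE 0.10 in place of 0.061). Among all genes, 4 were called over all arrays, 1 with cyclic loess, with all probe sets or with array weights, 0 with lot as a fixed block, and 1 to 6 with 1 array left out. Within lot 2, 0 were called, 1 with a prior trend or a threshold of 0.1, and 0 to 9 with 1 array left out, where the lone array of a group is assumed to vary like the others. With 1 array left out, the median of the 9 genes ran from -0.056 to 0.027 over all arrays and from -0.18 to -0.043 within lot 2. Signs turned in 24 of 151 values over all arrays and 6 of 106 within lot 2, and beyond the arrays left out the cause was not tested. With array weights Lhx1 was at -0.013, Ebf2 at -0.030 and Cacna2d2 at -0.023. With lot as a fixed block, which gives the lot 2 difference, Ebf2 was at -0.029, Calb2 at -0.078 and Cacna2d2 at -0.19. Ebf2 was at -0.0092 with cyclic loess, and Cacna2d2 at -0.015 with lot as a random block. With 1 array left out, differences over all arrays ran from -0.074 to 0.065 for Trp73, -0.058 to 0.16 for Lhx1, -0.11 to 0.011 for Lhx5, -0.028 to 0.049 for Ebf2, -0.056 to 0.027 for Ebf3, -0.036 to 0.18 for Calb2 and -0.10 to 0.086 for Cacna2d2. Within lot 2 they ran from -0.25 to 0.029 for Trp73, -0.22 to 0.22 for Lhx1, -0.11 to 0.049 for Ebf2, -0.16 to 0.0072 for Ebf3 and -0.29 to 0.14 for Calb2.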
